A study of Mus musculus with 138 samples.

Results

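The nuclear pore and transport receptor genes are the 49 of 25900 annotated mouse genes whose symbols name a numbered nucleoporin, a karyopherin (importin alpha or beta, numbered importin, transportin or exportin), the GTPase Ran, or 1 of the Ran partners Ranbp1, Ranbp2, Rangap1 and Cse1l, pseudogenes left out. Polyadenylated RNA was counted per gene in single 2-cell stage mouse embryos. The question, from the series title, was what maternal SMARCA5, the ATPase of ISWI chromatin remodellers, contributes to the activation of the embryonic genome.

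In the deletion experiment, embryos labelled Smarca5 +/- (mat KO) came from females with a maternal knockout mated to wild-type males, and were compared with embryos labelled Smarca5 +/+. The titles of both groups name matKO females, so the mothers of the +/+ embryos are not clear from the labels. The groups differ in the embryo's own genotype as well as in the maternal supply, and these cannot be told apart. Each of the 2 replicate numbers holds embryos pooled from several matings and ran on its own lane. In the TrimAway experiment, in which an antibody and the ubiquitin ligase TRIM21 degrade a protein in the cell, wild-type zygotes received anti-SMARCA5 or IgG or were not injected, and were collected at least 24 hours later. The labels call the replicates of both experiments technical, so p-values measure the spread between these single-embryo libraries. After a minimum of 100000 counts there were 22 wild-type, 28 maternal deletion, 31 anti-SMARCA5, 20 IgG and 15 uninjected libraries, 116 of 135 in all. No IgG library of replicate 2 reached this minimum, and there was no uninjected replicate 2. The 7 anti-SMARCA5 libraries of replicate 2 thus had no control of their own number in either comparison.

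Nuclear pores are ring-shaped channels built from nucleoporins: outer and inner rings form the scaffold, phenylalanine-glycine (FG) nucleoporins fill the channel, and filaments and a basket face the cytoplasm and the nucleus. Importin alphas bind the classical nuclear localisation signal and enter with importin beta, other importins and transportins carry their cargo directly, and exportins carry cargo out, all with Ran as the switch that loads and unloads them. In the early mouse embryo, transport factors made by the oocyte serve first, and the 2-cell stage is when the embryo's own genes come on strongly.

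Kept libraries held 109007 to 12004992 counts, with a median of 545264.5 in wild type and 1618485.5 in maternal deletion, and from 1460667 to 1708008 in the TrimAway groups. The 3 wells without an embryo held 453 to 1875 counts, of which 4 to 26 fell on the 49 genes. Smarca5 RNA was at a median of 375.4 CPM in wild type (CPM are counts relative to library size, scaled by the trimmed mean of M values, TMM) and at 98.3 CPM in maternal deletion, and the groups overlapped. In the deletion experiment, 3 libraries leaned away from their label in Smarca5 and in the oocyte gene Gdf9 together. They were maternal deletion replicate 2 well A04 and wild type replicate 2 wells G05 and H05, called libraries against their label below. Well A04 held 337.5 CPM of Smarca5 and 23.7 CPM of Gdf9. Wells G05 and H05 held 157.6 and 177.2 CPM of Smarca5 and 644.1 and 296.9 CPM of Gdf9. Median Gdf9 was 54.1 CPM in wild type and 4847 CPM in maternal deletion, so G05 and H05 lay between the group medians in both genes. Trim21 counts were present in 30 of 31 anti-SMARCA5 libraries but in only 8 of 20 IgG libraries. All 10 IgG libraries of replicate 1 were at 0 Trim21 counts, and the labels do not say whether IgG was injected with Trim21. Oocyte and egg markers summed to a median of 1209 CPM in wild type and 11959 CPM in maternal deletion, with 9 of 10 genes higher and none lower. Of 6 tested 2-cell markers, 3 were lower and none higher after deletion. Blastocyst lineage markers had median sums of 4.05 CPM in wild type and 70.2 CPM in maternal deletion, and too few counts to be tested there. Markers of cumulus and granulosa cells and of blood had median sums of at most 16.3 and 7.08 CPM in the 5 groups.

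Nuclear transport genes took a smaller share of the counts in maternal deletion embryos; amounts per embryo were not measured. The 49 genes took 0.860% ± 0.156 (SD, n = 22) of all counts in wild type, with a range of 0.629% to 1.236%, and 0.468% ± 0.112 (SD, n = 28) in maternal deletion, with a range of 0.304% to 0.775%. Of 47 genes tested, 25 were lower and 4 higher at an adjusted p under 0.05 in edgeR's quasi-likelihood test with Benjamini-Hochberg adjustment over 8518 genes. Among all genes tested, 26.4% were called lower and 30.3% higher, 56.6% in all. The median log2 fold change was -1.19 over the 47 genes and 0.18 over all genes, and 35 of 47 against 45.8% of all genes were below 0. With library totals as the only scaling the median of all genes moved to -0.04. The counts among the 47 became 28 lower and 3 higher, against 30.8% lower and 25.8% higher among all genes (56.6% called). Without the 3 libraries against their label they were 26 lower and 4 higher (60.1% of all genes called, 2357 lower and 2678 higher). With libraries of at least 500000 counts they were 23 lower and 3 higher of 48 (41.3% of all genes called, 1870 lower and 2153 higher). Depth and the oocyte markers also moved with the group, and the part of the oocyte markers in the result was not tested. These values are shares of the counts of single embryos. Less RNA of these genes and more RNA of others cannot be told apart from shares alone. Nup210, a membrane nucleoporin, and Nup210l were too low to be tested, with at least 9 libraries at 0 in either group.

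**Figure D1:**
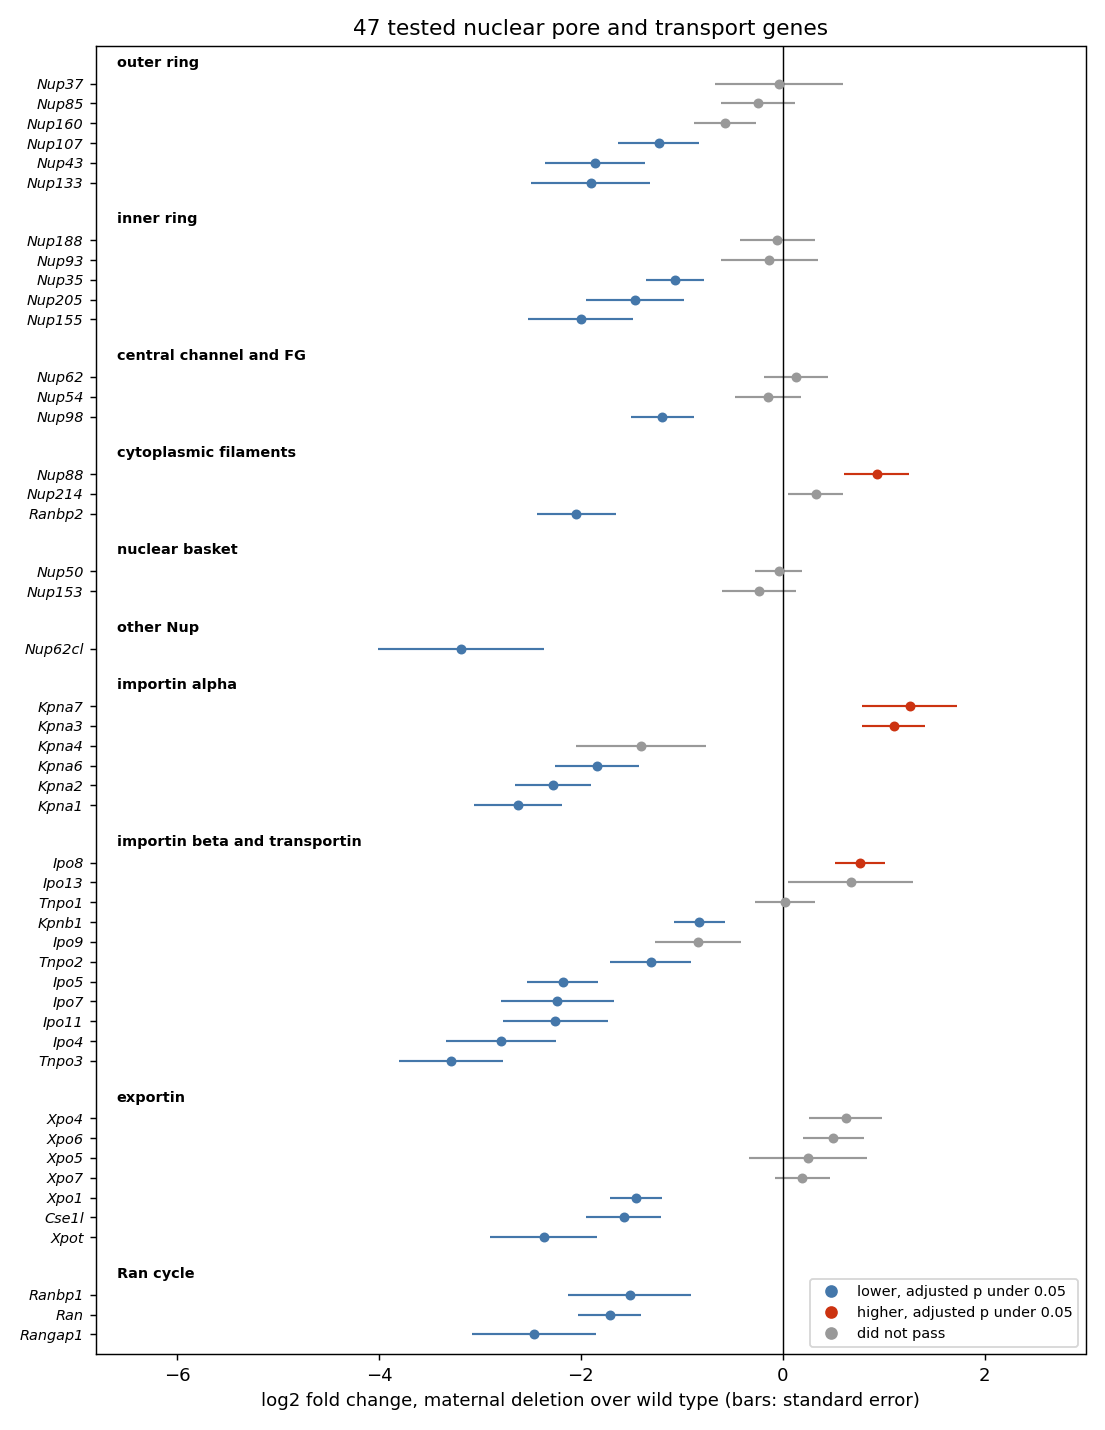
Log2 fold change of maternal deletion over wild type for the 47 tested genes, ordered by role, with the standard error as bars. Blue points are the 25 genes called lower, red the 4 called higher and grey the 18 that did not pass.

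Within the 2 lanes the direction was shared by most genes. In replicate 1, 21 of 41 tested genes were lower and none higher, against 20.2% lower and 23.6% higher among all genes. In replicate 2, 17 of 48 were lower and 2 higher, against 15.7% and 24.1%. A replicate block left 25 lower and 4 higher, against 25.8% and 31.8% of all genes. The interaction of replicate and deletion was called for none of 47 genes by edgeR (0.763% of all genes were called). The lowest adjusted p was 0.055, for Kpna3. An unadjusted p under 0.05 was held by 7 of 47, against 1366 of 8518 genes in all. Without the 3 libraries the interaction was called for Kpna3, Ipo8 and Nup35, 3 of 47 against 12.6% of all genes.

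Importin alphas, the adaptors that read the classical localisation signal, moved in opposite directions: of 6 genes, Kpna1, Kpna2 and Kpna6 fell, Kpna3 and Kpna7 rose, and Kpna4 did not pass (log2 fold change -1.40, adjusted p = 0.056). Among all genes 26.4% were lower and 30.3% higher. Kpna2, the most abundant of the 49 genes per exon length in wild type, had a lowest, median and highest level of 294.8, 879.9 and 1892 CPM in wild type and 15.7, 90.6 and 2025 CPM in maternal deletion. In 25 of 28 maternal deletion libraries it lay below every wild-type library, and the single library above them all was well A04. The fold was 4.85-fold lower (log2 fold change -2.28, SE 0.37, adjusted p = 1.85e-06 in edgeR). The lanes gave -2.43 and -2.04, and in replicate 1 the groups did not overlap, at 294.8 to 572.5 CPM in wild type and 15.7 to 197.0 CPM in maternal deletion. Kpna1, which also serves the classical signal, ran from 140.3 through 311.7 to 1227 CPM in wild type and from 0 through 42.7 to 223.9 CPM in maternal deletion. It was 6.15-fold lower (log2 fold change -2.62, SE 0.44, adjusted p = 2.46e-06), and 23 of 28 libraries lay below the lowest wild-type one. Kpna6, its close relative, was 3.58-fold lower (log2 fold change -1.84, SE 0.41, adjusted p = 2.08e-04), from a median of 104.4 to 20.4 CPM.

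Kpna3, an importin alpha of another subfamily, had a lowest, median and highest level of 57.0, 217.5 and 1470 CPM in wild type and 107.9, 789.3 and 3114 CPM in maternal deletion. It was higher by 1.10 on the log2 scale (SE 0.32, adjusted p = 0.0028, edgeR), with 27 of 28 libraries above the wild-type median. By lane, in replicate 2 its log2 fold change was 2.16 (adjusted p = 1.83e-05), whereas in replicate 1 it was 0.31 (adjusted p = 0.42). The wild-type median was 157.5 CPM in replicate 2 and 940.1 CPM in replicate 1. The difference between the lanes had an adjusted p of 0.055, and of 1.94e-04 without the 3 libraries against their label. Kpna7, an importin alpha known from oocytes and cleavage embryos, had levels of 0, 13.1 and 108.7 CPM in wild type and 1.85, 44.4 and 161.6 CPM in maternal deletion. It was 2.39-fold higher (log2 fold change 1.26, SE 0.47, adjusted p = 0.020), with a range of adjusted p from 1.79e-04 to 0.16 over the other settings. Both highest wild-type libraries for Kpna7 were wells G05 and H05, and without them the wild-type range ended at 56.3 CPM. Kpna7 overlaps 3 annotated genes, 1 of them on its own strand, and whether counting used strand is not given in the sources used here.

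**Figure D2:**
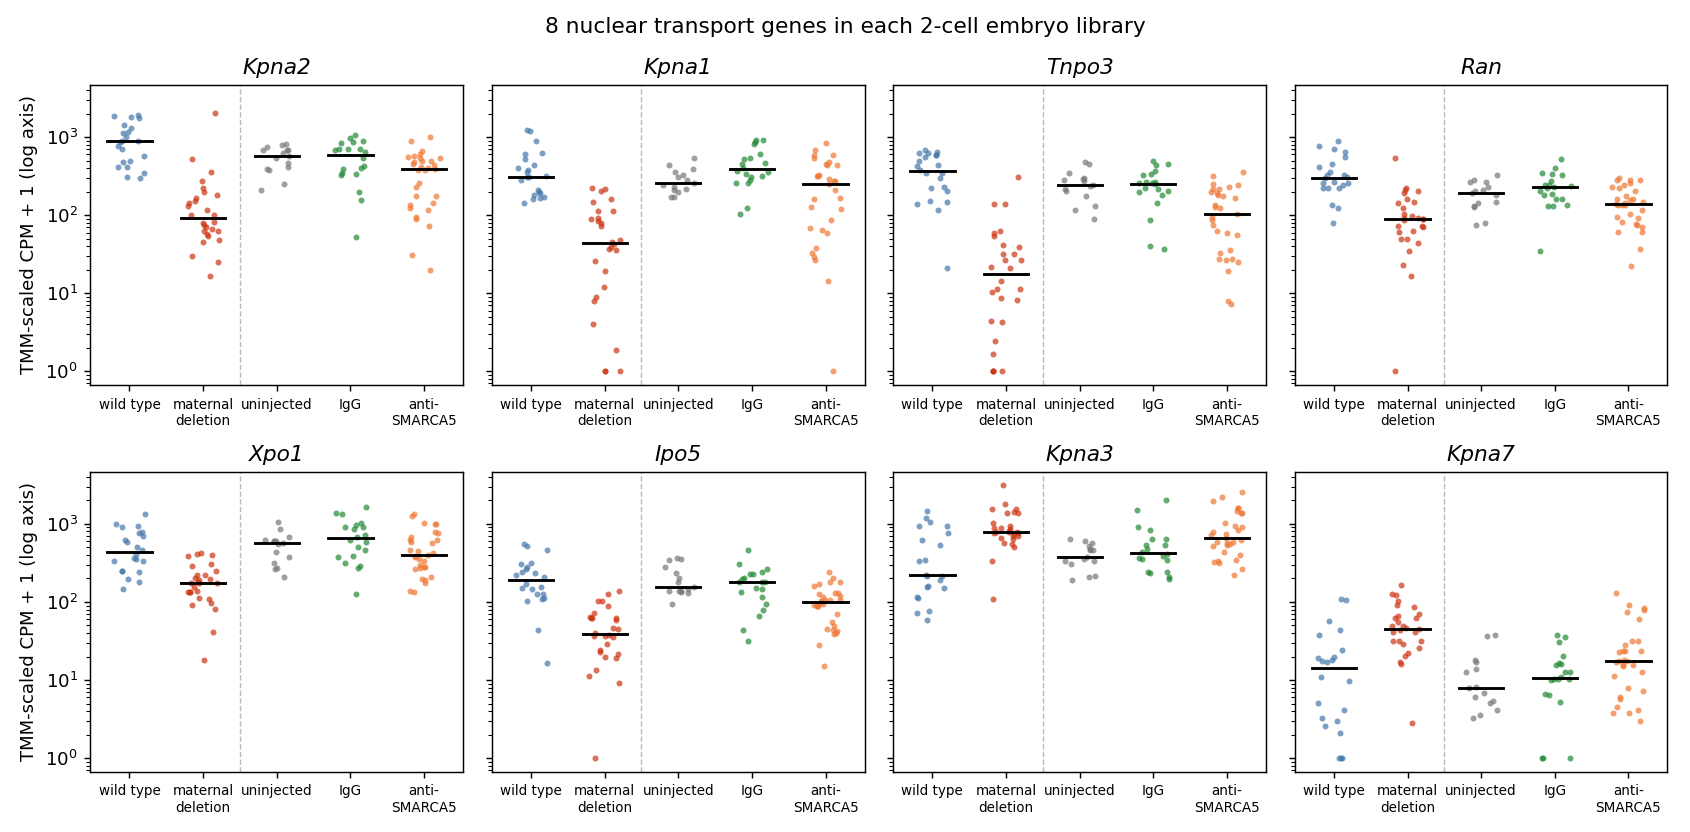
Level of 8 transport genes in every kept library, as scaled CPM plus 1 on a log axis, by group; each point is 1 embryo, the bar is the group's median, and the dashed line parts the separately scaled experiments. Kpna2, Kpna1, Tnpo3, Ran, Xpo1 and Ipo5 have lower medians in maternal deletion than in wild type, and Kpna3 and Kpna7 higher ones.

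The make-up of importin alpha RNA differed accordingly. Per exon kilobase, Kpna2 supplied 62.4% ± 24.2 (SD, n = 22) of importin alpha CPM in wild type and 17.3% ± 18.2 (SD, n = 28) in maternal deletion. Kpna3 went from 22.3% ± 19.9 to 71.8% ± 19.5, and Kpna7 from 1.59% ± 2.28 to 6.75% ± 5.38, with the same n. Kpna3 exceeded Kpna2 per kilobase in 6 of 22 wild-type and 26 of 28 maternal deletion libraries. The 2 lanes started from different mixtures: wild type held 33.2% Kpna2 and 45.5% Kpna3 in replicate 1, and 79.1% and 9.0% in replicate 2. Within replicate 1 the Kpna2 share was 23.3% to 46.7% in wild type and 1.88% to 15.9% in maternal deletion, with no overlap. These shares rest on the same libraries as the fold changes and are given as a description. In median CPM per exon kilobase the order in wild type was Kpna2 (306), Ran (114), Nup35 (80.1), Xpo1 (60.9), Nup62 (52.9) and Kpna3 (50.6). Kpna2 and Ran had interquartile ranges that did not overlap, 169 to 447 against 86.7 to 168, while the ranges of the other neighbours overlapped. In maternal deletion Kpna3 led at 184, above Nup62 at 70.7, Nup35 at 41.7, Tnpo1 at 40.9, Ran at 33.4 and Kpna2 at 31.5.

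**Figure D3:**
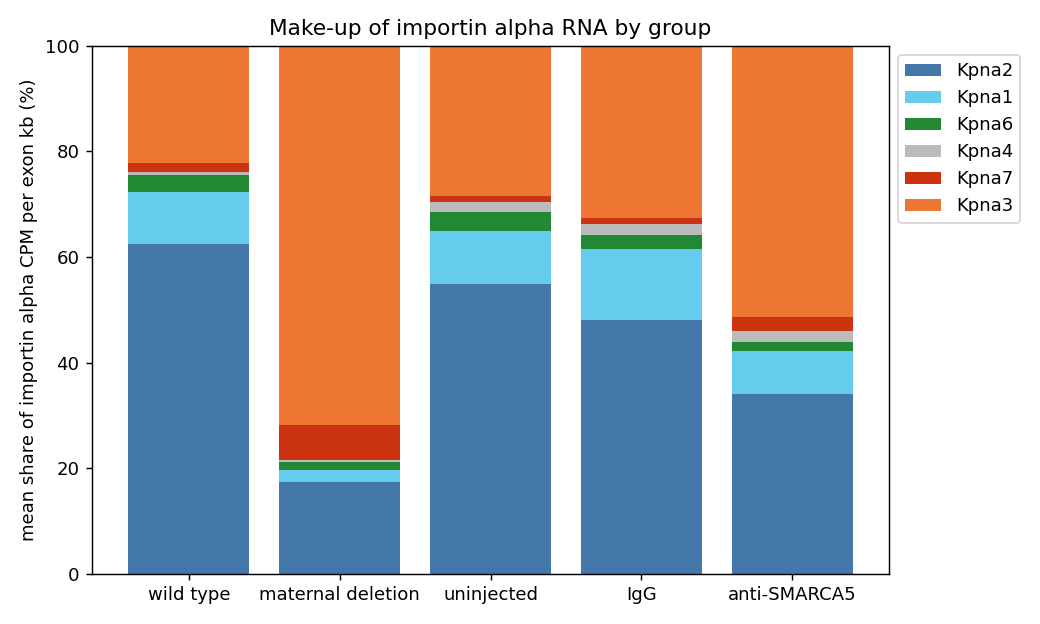
Mean share of each of 6 importin alpha genes in their summed CPM per exon kilobase, in percent, for the 5 groups. Kpna2 is 62.4% in wild type and 17.3% in maternal deletion, and 54.9%, 48.1% and 34.0% in uninjected, IgG and anti-SMARCA5.

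Of 11 importin betas and transportins, 7 were lower and Ipo8 higher, beside 26.4% lower and 30.3% higher among all genes. Kpnb1, the importin beta that carries importin alpha, had levels of 65.9, 130.3 and 299.8 CPM in wild type and 15.5, 59.7 and 352.5 CPM in maternal deletion. It was 1.77-fold lower (log2 fold change -0.83, SE 0.25, adjusted p = 0.0047), and its adjusted p was 0.0032 in replicate 1 and 0.27 in replicate 2. Tnpo3, the transportin that imports serine-arginine-rich splicing factors, showed the largest fall of the 47 tested genes. Its levels were 19.9, 363.5 and 681.3 CPM in wild type and 0, 16.7 and 310.7 CPM in maternal deletion, where 4 libraries were at 0 and the highest was well A04. It was 9.77-fold lower (log2 fold change -3.29, SE 0.52, adjusted p = 7.57e-07), and no maternal deletion library reached the wild-type median. Ipo4, a histone importer, had medians of 72.1 and 9.07 CPM and was 6.92-fold lower (log2 fold change -2.79, SE 0.54, adjusted p = 2.99e-05). Ipo11, a carrier of ubiquitin-conjugating enzymes, had medians of 75.6 and 6.59 CPM and was 4.76-fold lower (log2 fold change -2.25, SE 0.52, adjusted p = 3.16e-04), with 20 of 28 libraries below every wild-type one. Ipo7 and Ipo5, which carry ribosomal proteins and histones, fell by 2.23 and 2.18 on the log2 scale, and Tnpo2 fell by 1.31. Ipo8, the closest relative of Ipo7, had medians of 252.1 and 483.7 CPM and was 1.70-fold higher (log2 fold change 0.77, SE 0.25, adjusted p = 0.0085). It passed in replicate 2 (log2 fold change 1.40, adjusted p = 0.0015) and not in replicate 1 (0.14, adjusted p = 0.64). The difference between the lanes did not pass for Ipo8 (adjusted p = 0.16) and passed without the 3 libraries (0.0035). Tnpo1, the transportin for proline-tyrosine signals, did not pass at 0.02 (SE 0.30).

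Among 7 exportins, 3 fell and none rose, beside 26.4% lower and 30.3% higher among all genes. Xpo1, the exporter of leucine-rich export signals, ran through 145.4, 437.4 and 1339 CPM in wild type and 17.3, 173.6 and 427.4 CPM in maternal deletion. None of 28 maternal deletion libraries reached the wild-type median, and it was 2.73-fold lower (log2 fold change -1.45, SE 0.26, adjusted p = 6.63e-06). Xpot, the tRNA exporter, had medians of 51.2 and 6.88 CPM and was 5.16-fold lower (log2 fold change -2.37, SE 0.53, adjusted p = 2.01e-04). Cse1l, which returns importin alpha to the cytoplasm, fell by 1.57. Xpo4, Xpo5, Xpo6 and Xpo7 had log2 fold changes of 0.19 to 0.62 and did not pass.

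All 3 Ran cycle genes fell, beside 26.4% lower among all genes. Ran had levels of 78.2, 302.2 and 893.8 CPM in wild type and 0, 88.4 and 547.1 CPM in maternal deletion, and the highest value was again well A04, without which the range ended at 219.9 CPM. It was 3.27-fold lower (log2 fold change -1.71, SE 0.31, adjusted p = 1.09e-05), with 27 of 28 libraries below the wild-type median. Rangap1, which triggers GTP hydrolysis by Ran, had medians of 117.3 and 1.98 CPM, was at 0 in 10 of 28 maternal deletion libraries, and was 5.51-fold lower (log2 fold change -2.46, SE 0.61, adjusted p = 6.64e-04). Ranbp1, its cofactor, fell by 1.52. Reads shared with processed copies of Ran or Ranbp1 elsewhere in the genome could move these values, and how such reads were counted is not given in the sources used here.

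Nucleoporins were divided: of 20 tested, 9 were lower and Nup88 higher, beside 26.4% lower and 30.3% higher among all genes. In the outer ring Nup107, Nup133 and Nup43 fell (by 1.23, 1.90 and 1.86 on the log2 scale) and Nup85, Nup37 and Nup160 did not pass. In the inner ring Nup155, Nup205 and Nup35 fell (by 2.00, 1.46 and 1.06), and Nup93 and Nup188 did not pass. Nup155, a scaffold protein, had medians of 76.5 and 14.0 CPM and was 4.01-fold lower (SE 0.52, adjusted p = 0.0012). Nup35 passed in replicate 2 alone (log2 fold change -1.24, adjusted p = 0.0055, against 0.11 and 0.80 in replicate 1), but the difference between the lanes had an adjusted p of 0.13, and of 0.011 without the 3 libraries. Ranbp2, the large filament nucleoporin that binds Ran and SUMO-modified RANGAP1, had levels of 62.9, 252.5 and 856.7 CPM and 0.517, 61.2 and 291.6 CPM. It was 4.13-fold lower (log2 fold change -2.05, SE 0.39, adjusted p = 2.21e-05), and 14 of 28 libraries lay below every wild-type one. Nup88, its neighbour on the cytoplasmic face, had medians of 123.2 and 152.3 CPM and was 1.91-fold higher (log2 fold change 0.93, SE 0.32, adjusted p = 0.012), but only 16 of 28 libraries exceeded the wild-type median. In neither lane alone did Nup88 pass (adjusted p = 0.056 and 0.075). Nup98, an FG protein also found off the pore, fell by 1.19, whereas Nup62 and Nup54 of the central channel and Nup153 and Nup50 of the basket had log2 fold changes between -0.23 and 0.13. Nup62cl, a Nup62-like gene, was at 0 in 22 of 28 maternal deletion and 4 of 22 wild-type libraries, and fell by 3.18 (SE 0.82, adjusted p = 0.0010).

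Of 28 other pathway genes fixed by name, 27 were in the table and 23 could be tested, of which 9 fell and 4 rose (median log2 fold change -0.51), beside 26.4% lower and 30.3% higher among all genes. The falls included Snupn, the adaptor for small nuclear ribonucleoproteins (-3.17), Nxf1, the mRNA export receptor (-2.66), Ncbp1 of the cap-binding complex (-2.33), Tpr of the basket (-2.08) and Ahctf1, which starts pore assembly on chromatin (-1.03). The rises were Nupl1 (1.58), Aaas (1.01), Gle1 (0.99) and Pom121 (0.55), nucleoporins or pore-associated factors. With library totals only, 12 fell and 2 rose, beside 30.8% lower and 25.8% higher among all genes.

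Upstream sequence is shown for the gene with the largest fall (Tnpo3), for Kpna2 and Ran, and for the gene with the largest rise (Kpna7), so that upstream sequence of opposite responses can be read side by side. Kpna2 lies at chromosome 11, 106988629 to 106999541 on the minus strand, Ran at chromosome 5, 129020069 to 129024323 on the plus strand, Tnpo3 at chromosome 6, 29540827 to 29609887 on the minus strand and Kpna7 at chromosome 5, 144983519 to 145084030 on the minus strand, in GRCm38. The stretches are upstream of the RefSeq start, outside annotated exons, from RefSeq on GRCm38.p6, written 5′ to 3′ in the direction of the gene. They cover chr6:29609888-29610099 (minus), chr11:106999542-106999775 (minus), chr5:129019906-129020068 (plus) and chr5:145009637-145009886 (minus). The Kpna7 stretch lies inside the counted gene, which is annotated far beyond this RefSeq start, so it is upstream of a shorter transcript and not of the gene's outer end. Capitals mark matches on either strand to CACGTG, called the E-box, to CCAAT, to GGGCGG, called the GC box, or to GGATTA, a homeodomain site, and the matches do not overlap one another.
Tnpo3: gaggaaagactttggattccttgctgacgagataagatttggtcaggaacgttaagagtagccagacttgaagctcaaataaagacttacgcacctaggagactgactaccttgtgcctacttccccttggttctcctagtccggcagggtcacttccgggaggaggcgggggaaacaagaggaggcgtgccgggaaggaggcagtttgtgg
Kpna2: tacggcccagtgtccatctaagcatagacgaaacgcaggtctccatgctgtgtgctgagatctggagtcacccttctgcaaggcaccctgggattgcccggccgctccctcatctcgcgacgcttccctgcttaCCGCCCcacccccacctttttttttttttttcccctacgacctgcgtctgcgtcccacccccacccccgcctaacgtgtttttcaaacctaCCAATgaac
Ran: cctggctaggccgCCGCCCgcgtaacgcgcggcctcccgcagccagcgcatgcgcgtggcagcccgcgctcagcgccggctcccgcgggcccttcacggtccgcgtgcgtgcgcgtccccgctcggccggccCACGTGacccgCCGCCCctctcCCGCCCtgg
Kpna7: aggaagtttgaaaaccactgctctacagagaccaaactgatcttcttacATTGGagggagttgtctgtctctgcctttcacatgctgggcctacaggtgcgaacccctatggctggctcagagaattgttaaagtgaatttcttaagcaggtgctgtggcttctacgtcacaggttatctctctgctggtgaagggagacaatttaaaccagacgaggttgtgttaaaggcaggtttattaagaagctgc
The Ran stretch held an E-box and 3 GC boxes, the Kpna2 stretch a GC box and a CCAAT, the Kpna7 stretch a CCAAT on the other strand alone, and the Tnpo3 stretch no match. RefSeq windows of 300 bases, from 250 before the start, were found for 39 of the 49 genes and 27025 genes in all. Among the 39, 69.2% held a GC box against 35.9% of all windows, 53.8% CCAAT against 37.9%, 23.1% an E-box against 7.24%, and none GGATTA against 7.16%. The windows of all genes were not limited to genes expressed in these embryos. Whether expressed genes in general differ in the same way was not tested. An E-box stood in 6 of 20 windows of genes that fell, none of 3 that rose and 3 of 15 that did not pass, and GC boxes in 14, 1 and 11 of them.

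Degradation of SMARCA5 after fertilisation was compared with IgG first. Against IgG, edgeR called 1 of 49 genes, against 3.03% of all genes, and the median log2 fold change was -0.30 over the 49 and 0.04 over all genes. Nup43, an outer ring protein, had levels of 27.7, 117.2 and 175.3 CPM in IgG and 7.81, 53.6 and 158.9 CPM in anti-SMARCA5, with 30 of 31 libraries below the IgG median. It fell by 0.88 (SE 0.25, adjusted p = 0.041), with adjusted p from 0.0020 to 0.39 over the other settings. Blocking on the replicate number, edgeR called 14 genes lower and 3 higher, 17 of 49, against 25.8% of all genes (1426 lower and 1265 higher). The labels do not say whether a number marks the same pool in each injected group, so the blocked values assume it. The 2 replicate numbers shared by the groups differed. Within replicate 1 none of 49 passed, against 0.857% of all genes. An unadjusted p under 0.05 was held there by 11 of 49, against 2396 of 10507 genes in all. Within replicate 3, 10 of 47 were lower and 4 higher, against 911 lower and 665 higher of 9547 genes in all (16.5% called). Within replicate 3 without the 2 IgG libraries at 0 Trim21 counts, 6 were lower and 2 higher (13% of all genes called, 671 lower and 517 higher). Leaving out all 13 injected libraries at 0 Trim21 counts left 8 IgG libraries, all of replicate 3, against 30 anti-SMARCA5 libraries of 3 replicates. None of 49 genes then passed by edgeR (0% of all genes called). An unadjusted p under 0.05 was held by 3 of 49, against 987 of 11841 genes in all.

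The genes named above gave these values against IgG. Kpna2 had levels of 50.9, 596.9 and 1078 CPM in IgG, 208.9, 572.9 and 825.4 CPM in uninjected and 18.8, 389.4 and 992.1 CPM in anti-SMARCA5 embryos. Its log2 fold change was -0.60 (SE 0.30, adjusted p = 0.18), and -1.03 (SE 0.27, adjusted p = 0.0075) with the block; without the injected libraries at 0 Trim21 counts it was 0.15. The replicate numbers differed strongly in this gene: medians in replicates 1 and 3 were 769.5 and 342.7 CPM in IgG and 494.2 and 122.0 CPM in anti-SMARCA5. In IgG, all 10 libraries of replicate 1 and 2 of 10 in replicate 3 were at 0 Trim21 counts. Pool and Trim21 thus cannot be told apart between the IgG replicates. Tnpo3 had medians of 252.9 CPM in IgG and 102.6 CPM in anti-SMARCA5. Its difference was -0.99 on the log2 scale (SE 0.32, adjusted p = 0.063), and -1.59 with the block (adjusted p = 0.0013). Kpna3 had medians of 423.4 and 652.2 CPM and log2 fold changes of 0.63 (adjusted p = 0.13) and 0.85 with the block (adjusted p = 0.017). Kpna7 had medians of 9.66 and 16.4 CPM and log2 fold changes of 1.15 (adjusted p = 0.098) and 1.46 with the block (adjusted p = 0.0087). Ran gave -0.62 (adjusted p = 0.087) and -0.74 with the block (adjusted p = 0.026), while Xpo1 (-0.47) and Kpnb1 (-0.05) passed in neither fit. Alternatives for these 7 genes spanned adjusted p from 0.0013 to 0.91.

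The maternal deletion and the comparison with IgG share no library. Of the 25 genes that fell after deletion, 24 were below 0 against IgG, with a median of -0.56 and Ranbp1 (0.29) as the exception. Of all genes that fell after deletion 94.9% were below 0 against IgG, with a median of -0.57, so the 49 genes were near the background here. With the block, 15 genes were called in both experiments and in the same direction, 13 lower and 2 higher (Kpna3 and Kpna7), which is 51.7% of the genes called after deletion and 88.2% of those called against IgG. Among all genes tested in both, the same shares were 41.7% and 81.0%. The difference between the effects, tested in 1 fit of the 4 groups, was called for 13 of 49 genes, against 19.2% of all genes. All 13 were more negative after deletion, while of 12035 genes in all 1051 were called more negative and 1264 more positive. With the block it was called for 3 (Tnpo3, Kpna2 and Ipo5), all more negative, against 11.7% (443 more negative, 961 more positive). Without the libraries against their label or at 0 Trim21 counts it was called for 9, all more negative. The share of all genes was then 21%, with 1089 more negative and 1722 more positive of 13382. The experiments differ in embryos, handling and controls as well as in how SMARCA5 was removed, and these cannot be told apart.

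**Figure D4:**
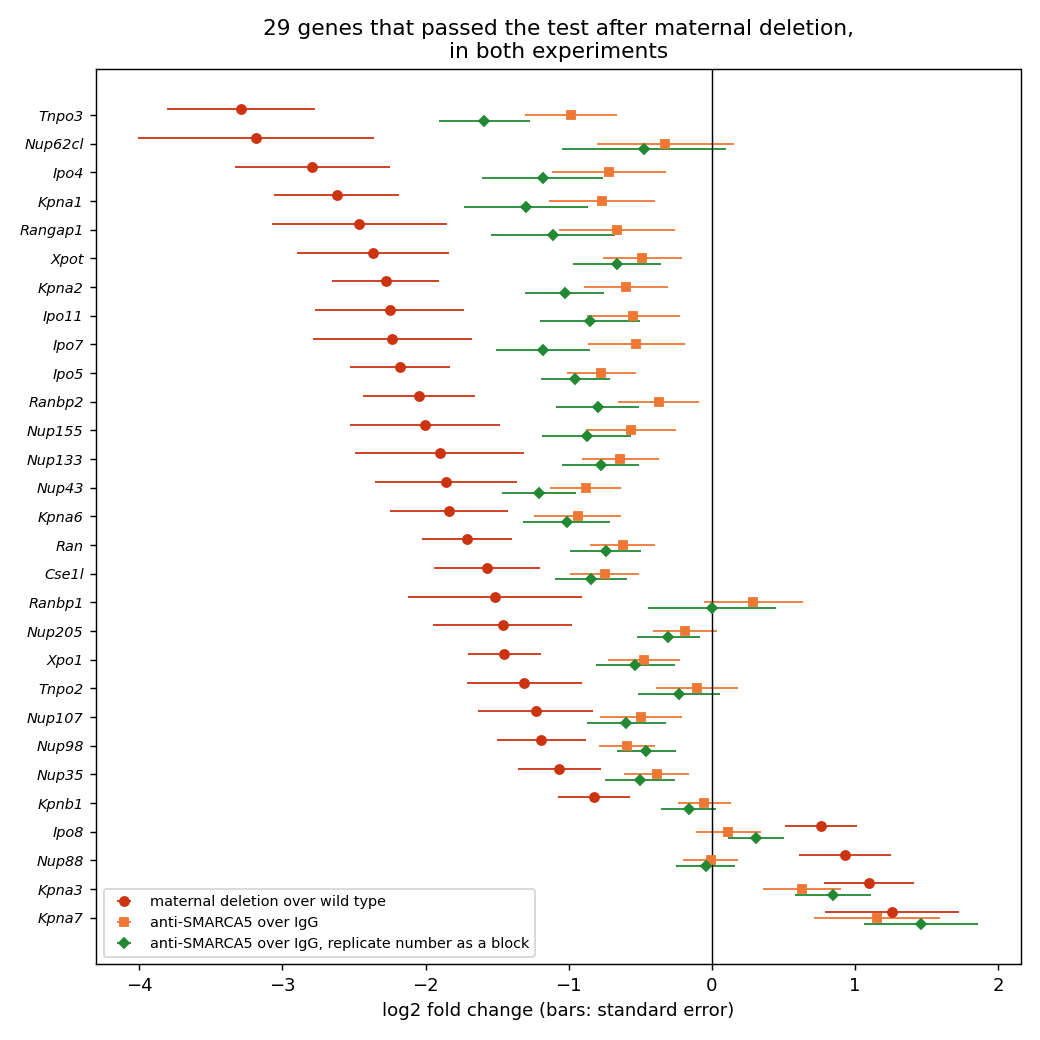
Log2 fold changes with standard errors of the 29 genes called after maternal deletion (red), beside anti-SMARCA5 over IgG without (orange) and with (green) the replicate number as a block. Of the 25 genes that fell after deletion, 24 lie left of 0 against IgG beside 94.9% of all genes that fell.

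Against uninjected embryos, which share the anti-SMARCA5 libraries with the comparison above, 10 of 49 genes were lower and 4 higher, 28.6% in all. Among all genes 27.9% were called, 1114 lower and 1885 higher of 10750. Lower calls thus outnumbered higher ones among the 49, and the reverse held among all genes. Ipo4 fell by 1.30 (SE 0.42, adjusted p = 0.018), Nup133 by 1.14, Nup85, an outer ring protein, by 1.08, Kpna6 by 1.06 and Tnpo3 by 1.02. Kpna7 (1.30), Kpna3 (1.15), Nup153 (0.76) and Xpo4 (0.65) rose. For Kpna3, 25 of 31 anti-SMARCA5 libraries exceeded the uninjected median of 380.7 CPM and 16 its highest library, at 633.4 CPM. The rise of Kpna7 had an adjusted p of 0.036, and of 0.093 with the block. Kpna2 did not pass (-0.58, adjusted p = 0.13) but did with the block (-0.85, adjusted p = 0.021). Kpnb1 (-0.29), Ran (-0.32) and Xpo1 (-0.06) did not pass. Library totals as the only scaling moved the median of all genes from 0.13 to -0.29. The count became 16 lower and 1 higher, against 1874 lower and 409 higher of 10750 genes in all (21.2% called). Without replicate 1 none of 48 tested genes passed in edgeR, and 0.00948% of all genes did. An unadjusted p under 0.05 was held by 9 of 48, against 2261 of 10544 genes in all. That fit set anti-SMARCA5 replicates 2 and 3 against uninjected replicate 3. Within replicate 3 alone, 7 of 47 were lower and 9 higher, with 2318 of 8697 genes called in all (1004 lower and 1314 higher). Within replicate 1 alone, 7 of 49 were lower and none higher, with 1656 of 10632 genes called in all (478 lower and 1178 higher). Blastocyst lineage markers, at a median sum of 10.6 CPM in uninjected, 14.4 CPM in IgG and 79.8 CPM in anti-SMARCA5 embryos, moved with this comparison (4 of 4 tested higher, and 2 of 4 against IgG), as did oocyte and egg markers (4 of 9 tested higher and 1 lower) and 2-cell markers (2 of 7 tested higher, Zscan4d and Zscan4f, and none lower). Their part in the result was not tested.

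IgG against uninjected embryos compared injection of a control antibody with none. Of the 20 IgG libraries 12 were at 0 Trim21 counts, against 1 of 31 anti-SMARCA5 libraries, so this is no full background for the anti-SMARCA5 injection. None of 48 genes was called by edgeR, as for all genes (0% called). Of the 48, 7 had an unadjusted p under 0.05, against 1440 of 9915 genes in all. DESeq2 called 2 (Kpna1 and Nup98, both higher in IgG) against 2.63% of all genes. The log2 fold changes were 0.02 for Kpna2, 0.16 for Kpna7, -0.24 for Kpnb1, 0.31 for Ran and 0.42 for Xpo1. Without the 12 IgG libraries at 0 Trim21 counts 1 gene, Nup107, was called lower, against 4.14% of all genes. The 49 genes took 0.811% ± 0.181 (SD, n = 15) of counts in uninjected, 0.753% ± 0.188 (SD, n = 20) in IgG and 0.585% ± 0.188 (SD, n = 31) in anti-SMARCA5 libraries, ranges that overlapped. Kpna3 exceeded Kpna2 per kilobase in 0 of 15, 5 of 20 and 17 of 31 of them.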

How the data were processed

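RNA was measured in single 2-cell embryos. The files hold raw read counts per gene as deposited by the authors, whole numbers against GRCm38 with ERCC spike-ins and hisat2 per the file headers. The submitters' processing notes name Trim Galore 0.6.5, cutadapt 2.3 and HISAT2 2.1.0. Use of strand, duplicate removal and treatment of reads with several positions are not given in the sources used here. Odd counts were more frequent than even ones (84269 values of 3 against 30228 of 2), so counting error may be larger than the counts imply.

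Lines of 1 gene ID were summed to 25900 genes, and the 19 of 135 embryo libraries under 100000 counts were left out. Each comparison was fitted on its own groups with edgeR 4.0.16 (R 4.3.3): filterByExpr, TMM scaling, robust glmQLFit and glmQLFTest, with Benjamini-Hochberg adjustment over all genes and a call at an adjusted p under 0.05. The fit was also run on simulated counts without replicate or lane effects, which cannot show how it handles those. DESeq2 1.42.0, library totals only, no filter, other depth minimums, a replicate block and leaving out replicates were the alternatives. Levels are TMM-scaled CPM, computed within each experiment, and per-kilobase values use GENCODE exon lengths.

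Deviations of same-numbered groups correlated over genes at 0.54 (deletion), 0.59 (anti-SMARCA5 and IgG), 0.08 (anti-SMARCA5 and uninjected) and 0.43 (IgG and uninjected), over 2 shared numbers each; in the deletion experiment each number has its own lane, which pairs the groups, while all TrimAway libraries share 1 lane and the labels do not say whether a number marks the same pool across groups. Genes given in full were Ran, Kpnb1, Xpo1, Kpna2 and Kpna7 and, after deletion, the 3 largest called falls and rises in each of 4 families (mean log2 CPM of 4 or more, direction shared by both replicates); in the TrimAway comparisons, the called genes up to 5 in each direction. Other names illustrate the counts and were chosen after their values were seen. The gene set and lists were chosen with earlier results of these data known.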

Additional observations from a re-analysis of the deposited data

Results flagged for a closer look

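For 13 genes the effect of maternal deletion and that of anti-SMARCA5 against IgG differed by the test of the difference itself (edgeR, adjusted p under 0.05). The differences in log2 fold change, deletion minus TrimAway, were -2.84 for Nup62cl, -2.35 for Tnpo3, -2.11 for Ipo4, -1.93 for Xpot, -1.92 for Kpna1, -1.78 for Ipo7, -1.75 for Ipo11, -1.75 for Kpna2, -1.73 for Ranbp2, -1.46 for Ipo5, -1.15 for Ran, -1.06 for Xpo1 and -0.84 for Kpnb1. Each was more negative after deletion. Among all genes 19.2% passed this test, 1051 of 12035 more negative and 1264 more positive. With the replicate number as a block, Tnpo3, Kpna2 and Ipo5 passed, against 11.7% of all genes (443 more negative and 961 more positive). The other 10 did not pass, among them Ran (adjusted p = 0.10), Kpna1 (0.16), Ipo4 (0.16) and Ipo7 (0.27).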

How the results depend on the processing

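After maternal deletion 29 of 47 genes were called. Without replicate 1 it was 19 of 48 (3879 of 9730 genes in all), and without replicate 2 it was 21 of 41 (2801 of 6389). Against IgG, where 1 was called, DESeq2 gave 7 (1007 of 10447 genes in all), library totals only 0 (64 of 10447) and no filter on low counts 6 (3010 of 22374). The replicate block gave 17 (2691 of 10447), all libraries with at least 1 count 2 (623 of 9500) and libraries of at least 500000 counts 0 (150 of 10498). Leaving out replicate 1, 2 or 3 gave 0 (0 of 9402), 1 (591 of 10100) and 4 (417 of 11044). Added after seeing the data, leaving out the anti-SMARCA5 library without Trim21 counts gave 2 (521 of 10381 genes in all). Leaving out all injected libraries at 0 Trim21 counts, also added then, gave 0 (0 of 11841). Against uninjected, 14 became 0 (1 of 10544 genes in all), 16 (2921 of 10283) and 11 (2002 of 11142) when replicate 1, 2 or 3 was left out. IgG against uninjected went from 0 to 2 with DESeq2 (2.63% of all genes) and, added after seeing the data, to 1 without IgG libraries at 0 Trim21 counts (4.14%). The interaction of replicate and deletion went from 0 to 1 with library totals only (97 of 8518 genes in all). Added after seeing the data, it went to 3 without the libraries against their label (12.6% of all genes). The difference between experiments went from 13 (19.2% of all genes) to 3 (11.7%) with the replicate block. The cause of these moves was not tested. Of 400 alternative values of the named genes, 345 kept direction and side of the threshold, 35 lost and 8 gained the call, and 12 reversed, none of them called. Reversed were Kpnb1 against IgG (0.043 with all libraries, -0.18 to 0.22 when a replicate was left out) and against uninjected (-0.41 to 0.019 when a replicate was left out), Kpna2 against IgG (0.15 without injected libraries at 0 Trim21 counts), and, for IgG against uninjected, Kpna2 (-0.20 with totals only, -0.10 with all libraries, -0.27 to 0.33 when a replicate was left out, -0.72 without IgG libraries at 0 Trim21 counts) and Kpna7 (-0.15 with totals only, -0.0086 with the block, -0.047 with all libraries, -0.91 to 1.86 when a replicate was left out). The block changed no count in another comparison by over 1.5 times. Depth limits Nup210, Nup210l and the marker lists with few counts.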
